A study of Mus musculus with 32 samples.

Results

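Tumour-associated macrophages were followed through 10 genes in bulk RNA sequencing of KPC36 tumours: Csf1r, Adgre1, C1qa, C1qb, C1qc, Cd68, Itgam, Mertk, Trem2 and Apoe. They were taken by symbol from the deposited count table, which holds 55103 genes, and all 10 were found; all 10 were among the 20474 genes that passed the filter on low counts. Csf1r, Adgre1, Cd68 and Itgam are general macrophage or myeloid genes, C1qa, C1qb and C1qc encode the chains of complement C1q, Mertk is a receptor for dying cells, and Trem2 and Apoe handle lipid.

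KPC36 is a tumour cell line of the mouse pancreas, as KPC lines are, and its genotype, the host strain and the hosts' age and sex are not in the labels used here. The 32 tumours form 4 groups of 8: tumours treated with carbon ions, untreated controls of the carbon-ion arm, tumours treated with photons and untreated controls of the photon arm. Every group was a KPC36 tumour with no other agent named, and the dose is not given in the sources used here. Tissue was taken on days 4 and 7 by the series' design; no label ties a library to a day, so days were not compared. The labels do not say whether the 8 tumours of a group came from separate animals, so a p-value measures the spread between these tumours.

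Macrophages are phagocytes that enter tumours as monocytes or arise from resident cells. Their survival depends on the receptor Csf1r and its ligands Csf1 and Il34, and their identity on the transcription factor PU.1, the product of Spi1. C1q is the recognition molecule of the classical complement pathway and is made mainly by macrophages rather than by the liver. Mertk binds phosphatidylserine on dying cells through the bridging proteins Gas6 and Pros1. Trem2 senses lipids and lipoproteins through the adaptor Tyrobp, and Apoe encodes a protein of the lipoprotein particles that carry cholesterol. Trem2 and Apoe both mark a lipid-laden state of tumour macrophages. In bulk tissue, fewer macrophages and less RNA per macrophage cannot be told apart.

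Library totals ran from 13891863 to 71645903 estimated counts, and the lowest estimated count of any of the 10 genes in any library was 74.2, for Trem2. The labels call the cell type malignant, and epithelial markers were present in every library, with 8 keratin, cadherin and related genes summing to between 2569 and 5732 CPM (the counts-per-million unit, with library totals adjusted by the TMM method). The 10 macrophage genes together summed to between 446 and 1543 CPM. The summed level of 9 T cell markers was between 5.51 and 20.0 CPM, and that of 6 B and plasma cell markers between 0.522 and 2.36 CPM. One library stood apart before any comparison: photon-irradiated replicate 3, which had the smallest total, was the lowest of the 32 libraries for all 10 genes. Carbon-irradiated replicate 8 was the highest of the 32 for 6 of them (C1qa, C1qb, C1qc, Cd68, Itgam and Mertk). Titles begin with the letter D in 4 carbon-ion controls and 3 carbon-irradiated libraries and with M in all others, and the meaning of the letters is not stated.

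In GRCm38, the assembly also called mm10, C1qa, C1qc and C1qb lie next to each other on the minus strand of chromosome 4, in a cluster of 18675 bases from 136880129 to 136898803. C1qa occupies chr4:136895917-136898803, C1qc chr4:136889804-136893065 and C1qb chr4:136880129-136886187. The other 7 genes are scattered. The Csf1r locus overlaps Hmgxb3 on the opposite strand, which was itself expressed at up to 83.1 CPM, here without TMM scaling. Adgre1 (chr17:57358691-57483527) and Trem2 (chr17:48346401-48354147) share chromosome 17, and Itgam (chr7:128062640-128118491) and Apoe (chr7:19696109-19699188) share chromosome 7 without being neighbours. Cd68 is at chr11:69664213-69666153 and Mertk at chr2:128698956-128802894. Itgam overlaps the predicted gene Gm49368 on the same strand, whose highest level was 2.21 CPM without TMM scaling. Mertk overlaps Gm14011 on the opposite strand, whose highest estimated count was 3.86. How the authors' counting treated strand and shared reads is not given in the sources used here, so the levels of Csf1r, Itgam and Mertk carry that uncertainty.

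Promoter sequence is shown for C1qb and C1qc, which varied together across the tumours, and for 2 general myeloid genes. RefSeq promoter windows of GRCm38.p6 were found for 7 of the 10 genes, in 9 windows; Csf1r, Adgre1 and C1qa had no entry. The 250 bases before each start were searched on both strands for GAGGAA, the core recognised by PU.1. Capitals mark GAGGAA or its reverse complement TTCCTC, and each sequence is written 5′ to 3′ on the strand of its gene. The stretches are C1qb chr4:136886201-136886450 (minus strand), C1qc chr4:136893066-136893164 (minus strand), Itgam chr7:128062529-128062588 and chr7:128062580-128062639 (plus strand) and Cd68 chr11:69666361-69666420 (minus strand).
C1qb: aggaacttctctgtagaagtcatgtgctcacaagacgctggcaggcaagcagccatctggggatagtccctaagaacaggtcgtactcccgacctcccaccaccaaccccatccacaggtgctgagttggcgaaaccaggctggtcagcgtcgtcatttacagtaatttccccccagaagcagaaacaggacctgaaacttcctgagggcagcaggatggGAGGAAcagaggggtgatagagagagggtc
C1qc: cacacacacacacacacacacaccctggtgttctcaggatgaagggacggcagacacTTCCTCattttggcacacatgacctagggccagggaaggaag
Itgam: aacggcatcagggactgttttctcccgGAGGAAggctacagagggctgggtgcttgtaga
Itgam: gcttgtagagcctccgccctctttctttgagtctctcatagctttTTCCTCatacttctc
Cd68: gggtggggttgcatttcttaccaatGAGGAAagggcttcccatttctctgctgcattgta
The core was present in 7 of the 9 windows and in 6 of the 7 genes (Apoe, C1qb, C1qc, Cd68, Itgam and Trem2), against 23.3% of 32851 promoter windows of the same length. The longer form, the core followed directly by GT, was in the window of C1qc alone, against 2.44% of all windows. The AP-1 motif TGANTCA was in the windows of Cd68 and Trem2, against 6.75%. The interferon-stimulated response element (2.98% of all windows) and the E-box CACGTG bound by TFEB and MITF (6.02%) were in none of the 9. A match is a description of these letters and not evidence of binding.

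Levels between genes were compared as CPM per kilobase of the principal transcript. Apoe was the most abundant, with a median of 308 CPM per kb over the 32 tumours, and exceeded C1qb in all 32. The C1q chains followed: C1qb had a median of 102, C1qa of 93.6 and C1qc of 90.1 CPM per kb. C1qb exceeded C1qa in 29 of 32 libraries and C1qa exceeded C1qc in 22, so C1qa and C1qc in particular are not separated beyond the spread between tumours; with the length of all exons in place of the principal transcript, however, the C1qc median was 56.1 and those of C1qb and C1qa were the same. Next came Csf1r at 29.8 and Cd68 at 21.4 CPM per kb, with Csf1r above Cd68 in 28 libraries. Adgre1, the adhesion receptor known as F4/80, had a median of 10.8, Trem2 of 9.37, Itgam (CD11b) of 8.90 and Mertk of 4.26 CPM per kb. Trem2 exceeded Itgam in only 16 of 32 libraries, so their order is not resolved, and with the length of all exons Trem2 moved to the 10th place. The range over tumours was widest for Itgam, whose highest library held 6.71 times the lowest, and Cd68, 6.5 times; it was narrowest for Mertk, 2.60 times, and Csf1r, 2.60 times.

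**Figure D1:**
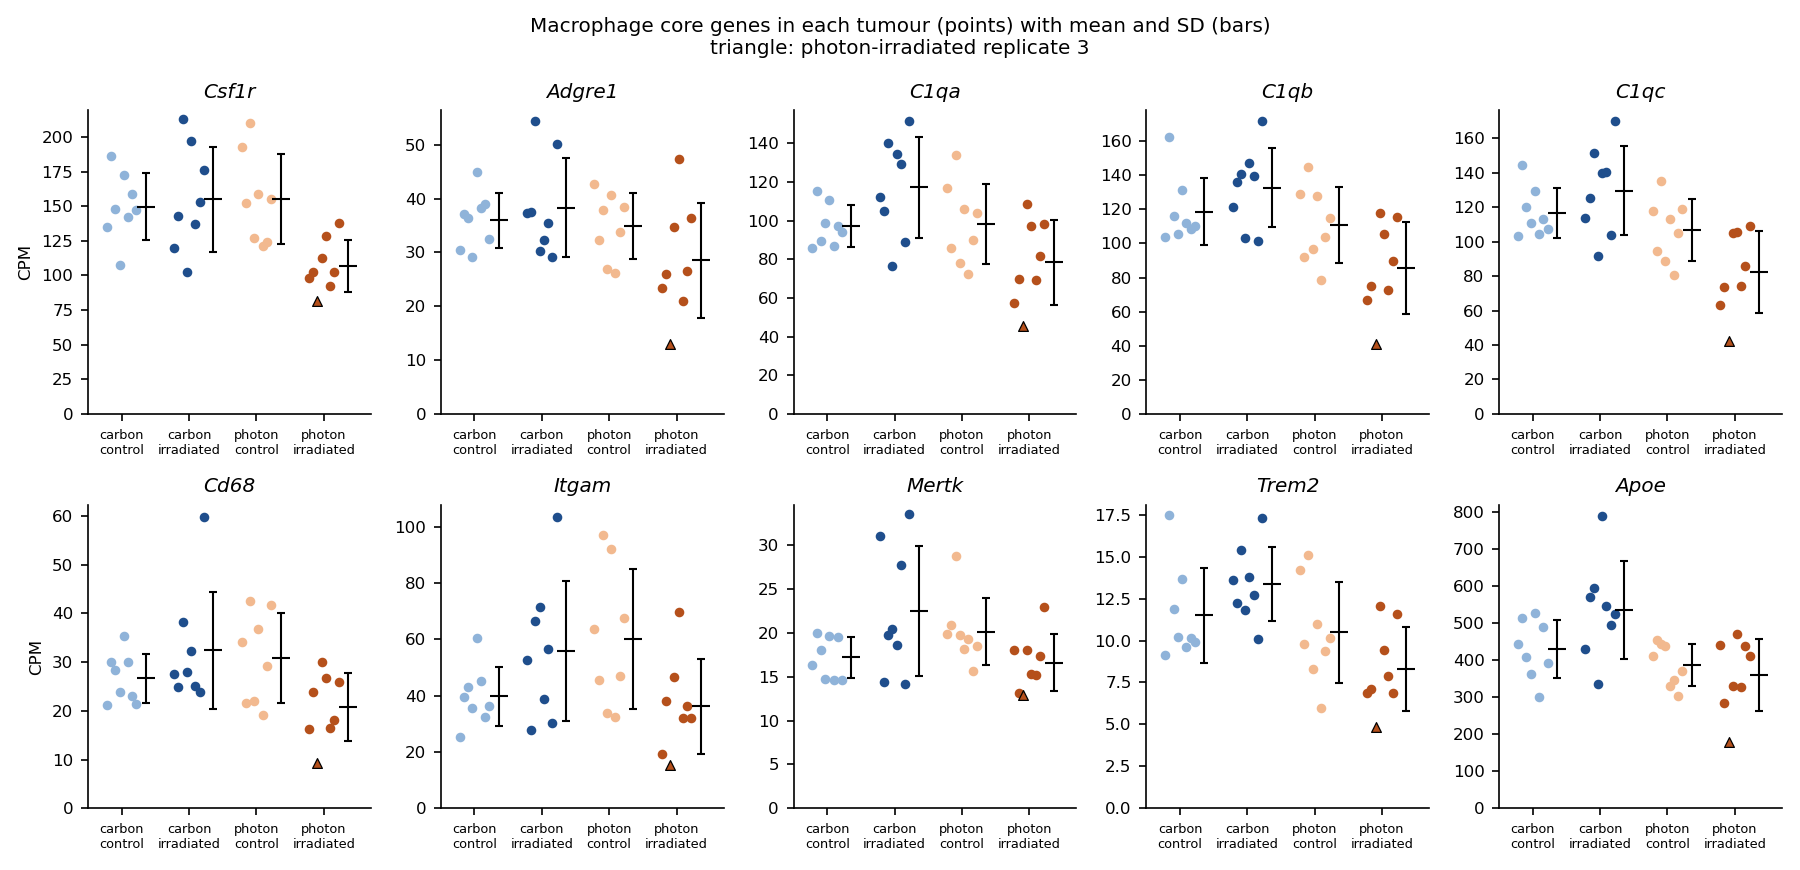
Level of each gene in each tumour in CPM (vertical axis, starting at 0), with 8 tumours per group as points and the group mean and SD as bars; the triangle is photon-irradiated replicate 3. The photon-irradiated group has the lowest mean for every gene, the groups overlap in every panel, and the triangle is the lowest point of each panel.

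The clearest contrast lay between the irradiated groups. All 10 macrophage genes had higher mean levels in carbon-irradiated than in photon-irradiated tumours, and 6 passed the test (edgeR quasi-likelihood, Benjamini-Hochberg adjusted p under 0.05 over all genes tested): the 3 C1q chains, Csf1r, Trem2 and Apoe. In this comparison 5.08% of all genes tested were called, and 3.55% were called as higher; with upper-quartile scaling 519 of 1056 called genes were higher, against 726 of 1041 with TMM, and 5 of the 10 passed. The median log2 difference of the 10 genes was 0.60, against 0.0082 over all genes. The groups differ by radiation type and also by arm, and the controls of the arms are compared further on.

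C1qc and C1qb had the smallest p-values of the 10 genes. C1qc had a lowest, median and highest level of 91.7, 133 and 170 CPM in carbon-irradiated tumours and of 42.2, 80.03 and 109 CPM in photon-irradiated ones. Of the 8 carbon-irradiated tumours, 6 lay above the highest photon-irradiated tumour, and all 8 above the photon-irradiated median. Its log2 difference was 0.65 (SE 0.15, adjusted p = 0.0193, edgeR). C1qb ran from 102 to 172 CPM, median 138, after carbon ions and from 40.7 to 118 CPM, median 82.6, after photons, a log2 difference of 0.63 (SE 0.16, adjusted p = 0.0258, edgeR). C1qa ran from 76.4 to 152 CPM, median 120.7, and from 45.4 to 109 CPM, median 75.8, a log2 difference of 0.58 (SE 0.15, adjusted p = 0.0302, edgeR). For both genes all 8 carbon-irradiated tumours were above the photon-irradiated median, while the ranges still overlapped.

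Csf1r, the receptor on which macrophage survival depends, had 102, 148 and 213 CPM as its lowest, median and highest level after carbon ions and 81.7, 102 and 138 CPM after photons. Among carbon-irradiated tumours 5 lay above every photon-irradiated one, and the log2 difference was 0.54 (SE 0.14, adjusted p = 0.0282, edgeR). Trem2 was low in counts, at 10.1, 13.2 and 17.3 CPM against 4.83, 7.49 and 12.04 CPM, with 6 carbon-irradiated tumours above all photon-irradiated ones. It had the largest log2 difference of the 10 genes, 0.68 (SE 0.18, adjusted p = 0.0293, edgeR). Apoe ran from 335 to 789 CPM, median 536.0, after carbon ions and from 180.1 to 469 CPM, median 370.3, after photons. Of 8 carbon-irradiated tumours 7 were above the photon-irradiated median, and the log2 difference was 0.57 (SE 0.16, adjusted p = 0.0340, edgeR).

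The other 4 genes had differences of the same sign that did not pass. Cd68, a lysosomal membrane glycoprotein of macrophages, differed by 0.63 on the log2 scale (SE 0.21, adjusted p = 0.0631, edgeR) and Itgam, the alpha chain of the integrin Mac-1, by 0.62 (SE 0.27, adjusted p = 0.155, edgeR), with the widest interval of the 10, 0.06 to 1.18. Mertk differed by 0.43 (SE 0.15, adjusted p = 0.0851, edgeR) and Adgre1 by 0.42 (SE 0.17, adjusted p = 0.125, edgeR). All 8 carbon-irradiated tumours exceeded the photon-irradiated median for Cd68 and Adgre1, and 6 of 8 for Itgam and Mertk. With the DESeq2 Wald test Cd68 also passed (adjusted p = 0.0290), giving 7 genes.

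The number of genes past the threshold rested on which tumours and groups were in the fit. When only the 16 irradiated libraries were fitted, none of the 10 passed, with adjusted p-values (edgeR) of 0.0690 for Trem2, 0.0724 for C1qc, 0.0736 for Csf1r, 0.0846 for C1qb, 0.0862 for C1qa and 0.0971 for Apoe and log2 differences from 0.54 to 0.69 among these 6; in that fit 57 genes were called in all. Without photon-irradiated replicate 3, the tumour lowest for all 10, C1qc alone passed (log2 difference 0.56, adjusted p = 0.0435, edgeR), the other 9 had adjusted p-values from 0.0576 to 0.296, and all 10 differences stayed positive, from 0.32 to 0.60. Over all genes 108 were called without that tumour. Leaving out carbon-irradiated replicate 2 or 5 or photon-irradiated replicate 1 also left 1 gene, and leaving out photon-irradiated replicate 7 left 3. C1qc passed in all 16 fits that left out 1 library, C1qb in 12, and C1qa, Csf1r, Trem2 and Apoe in 11 each. With the title letter as a term 3 of the 10 passed, and among M-titled libraries alone 4.

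**Figure D2:**
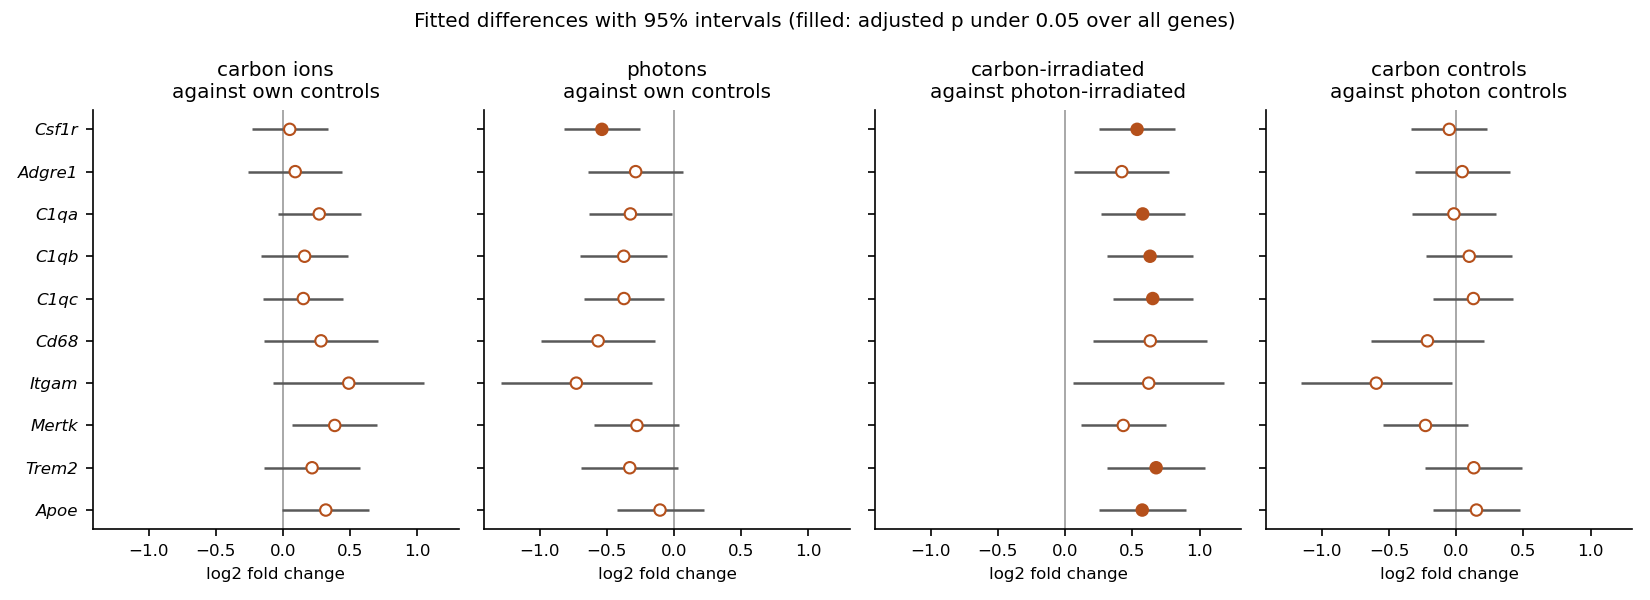
Fitted log2 fold change of each gene (horizontal axis) with its 95% interval in 4 comparisons; filled points passed the adjusted threshold. Between the irradiated groups all 10 points lie to the right of 0 and 6 are filled, after photons all 10 lie to the left and Csf1r alone is filled, and no point is filled in the carbon-ion comparison or between the controls.

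After photons all 10 macrophage genes had lower mean levels than in the photon controls, and Csf1r was the one that passed. In photon controls its lowest, median and highest levels were 120.97, 154 and 210.0 CPM, and after photons 81.7, 102 and 138 CPM. All 8 irradiated tumours lay below the control median and 6 lay below the lowest control. Csf1r fell by 0.54 on the log2 scale (SE 0.14, adjusted p = 0.0260, edgeR), to 0.689 times the control level. Over all genes tested 3.81% were called in this comparison and 2.1% were called as lower, and the 1 of 10 is to be read against those shares. With upper-quartile scaling 566 of 960 called genes were higher after photons, against 351 of 781 with TMM. This comparison shares the photon-irradiated tumours with the one above, and the calls are not independent.

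The other 9 genes had negative fitted differences that did not pass. The median over the 10 was -0.35, against -6e-04 over all genes, and 6 of the 10 had an unadjusted p under 0.05, as did 4410 of the 20474 genes tested. Itgam had the largest, -0.73 (SE 0.27, adjusted p = 0.117, edgeR), with levels of 32.3, 55.5 and 97.2 CPM in controls and 15.4, 34.2 and 69.7 CPM after photons. Cd68 followed at -0.57 (SE 0.21, adjusted p = 0.107, edgeR), and none of its 8 irradiated tumours reached the control median. The C1q chains were close together, at -0.33 for C1qa, -0.37 for C1qb and -0.37 for C1qc, with adjusted p-values (edgeR) from 0.130 to 0.204. Trem2 (-0.33), Adgre1 (-0.29) and Mertk (-0.28) had adjusted p-values (edgeR) from 0.279 to 0.345. Without photon-irradiated replicate 3 the Adgre1 difference was -0.17, and leaving out 1 library gave Mertk differences from -0.35 to -0.18. Apoe differed least: its medians were 390.2 CPM in controls and 370.3 CPM after photons, with a log2 difference of -0.10 (95% interval -0.43 to 0.22, adjusted p = 0.749, edgeR).

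The Csf1r call also depended on single tumours. It passed in 9 of the 16 fits that left out 1 library and was lost without photon control replicate 1, 3 or 8 or photon-irradiated replicate 1, 3, 6 or 7, with log2 changes from -0.59 to -0.46 over the 16. Without photon-irradiated replicate 3 it was -0.48 (adjusted p = 0.0574, edgeR), and 480 genes were called in all. Without photon-irradiated replicate 5, Itgam passed beside Csf1r. Hmgxb3, which overlaps Csf1r on the other strand, differed by 0.07 in the same comparison (adjusted p = 0.561, edgeR).

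Carbon ions gave no called difference in any of the 10 genes, nor in any gene of the table (0% of genes tested, edgeR; 1177 genes had an unadjusted p under 0.05, and DESeq2 called 17 genes, none of them among the 10). All 10 fitted differences were positive, with a median of 0.24 against 0.0066 over all genes. Mertk alone among the 10 had an unadjusted p under 0.05 (0.0179): its lowest, median and highest levels were 14.7, 17.2 and 19.9 CPM in controls and 14.2, 20.1 and 33.6 CPM after carbon ions, and 4 irradiated tumours lay above every control while 2 lay below every control. Its log2 difference was 0.39 (SE 0.15, adjusted p = 0.727, edgeR).

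Apoe differed by 0.32 after carbon ions (95% interval -0.01 to 0.64, adjusted p = 0.874, edgeR), with 7 of 8 irradiated tumours above the control median of 426 CPM. Itgam differed by 0.49 (95% interval -0.07 to 1.05) and C1qa by 0.27 (95% interval -0.04 to 0.58). Without carbon-irradiated replicate 8, the tumour highest for 6 of the genes, the Itgam difference was 0.30 and that of Cd68 was 0.10, against 0.28 with it. Csf1r was the gene with the smallest difference, 0.05 (95% interval -0.23 to 0.33): its medians were 148 CPM in controls and 148 CPM after carbon ions. The Csf1r interval leaves out the photon estimate of -0.54, whose own 95% interval was -0.82 to -0.25. The difference of the effects did not pass for Csf1r (adjusted p = 0.197, edgeR).

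Within the carbon-ion arm the letters could be compared side by side, with 3 irradiated and 4 control tumours titled D and 5 and 4 titled M. The log2 ratio of means was positive under both letters for 8 of the genes, for example 0.33 and 0.42 for Mertk, 0.30 and 0.33 for Apoe, 0.44 and 0.46 for Itgam and 0.29 and 0.26 for C1qa. Csf1r was 0.14 under D and -0.02 under M, and Adgre1, the F4/80 gene, was 0.37 under D and -0.12 under M.

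Whether the response differed between the radiation types was tested as the difference of the effects, each against its own controls. None of the 10 genes passed, in a comparison in which 0.0781% of genes (16) were called by edgeR; 8 of the 10 had an unadjusted p under 0.05, as did 2670 of the 20474 genes tested, and DESeq2 called 262 genes and none of the 10. All 10 estimates were positive, with a median of 0.57 against 0.0174 over all genes. Itgam had the largest, 1.22 (SE 0.39, adjusted p = 0.175, edgeR), followed by Cd68 at 0.85 (SE 0.29, adjusted p = 0.212, edgeR) and Mertk at 0.66 (SE 0.22, adjusted p = 0.195, edgeR). Csf1r stood at 0.59 (SE 0.19, adjusted p = 0.197, edgeR) and the C1q chains between 0.52 and 0.59. Apoe (0.42, adjusted p = 0.413, edgeR) and Adgre1 (0.38, adjusted p = 0.5004, edgeR) had the smallest, with 95% intervals that include 0.

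Between the untreated controls of the arms none of the 10 genes passed by edgeR or by DESeq2, in a comparison in which edgeR called 9.14% of all genes. An unadjusted p under 0.05 was found for 1 of the 10 and for 4726 of the 20474 genes tested. The median difference of the 10 genes was 0.0137 on the log2 scale, against -0.0232 over all genes. Of the 10 genes, 8 lay between -0.21 and 0.15. Itgam was the exception in size, with control medians of 38.0 CPM in the carbon-ion arm and 55.5 CPM in the photon arm and a log2 difference of -0.60 (SE 0.27, unadjusted p = 0.0375, adjusted p = 0.182, edgeR). The Itgam control levels enter the difference of the effects given above for Itgam. Mertk had -0.23 (adjusted p = 0.397, edgeR), and from -0.26 to -0.13 when 1 library was left out.

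The genes varied together from tumour to tumour within groups. With group means removed, Pearson's r of log2 CPM over the 32 tumours was positive for all 45 pairs, with a median of 0.69, and 41 pairs had an adjusted permutation p under 0.05 (100000 permutations within groups, two-sided, Benjamini-Hochberg over the 45 pairs; 38 by Spearman's rho). The C1q chains, which share a cluster, were the tightest: r was 0.97 for C1qb and C1qc (permutation p = 1e-05, the smallest the permutations can give, adjusted p = 2.25e-05; rho 0.94), 0.96 for C1qa and C1qc and 0.94 for C1qa and C1qb. Trem2 followed C1qb at 0.90 (rho 0.86) and Adgre1 followed C1qc at 0.87 (rho 0.84). Cd68 and Itgam had r = 0.83 (rho 0.85). Leaving out the 2 tumours farthest from the median of the first gene gave 0.95 for C1qb and C1qc, 0.89 for C1qb and Trem2, 0.81 for Adgre1 and C1qc and 0.78 for Cd68 and Itgam.

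Apoe and Mertk stood at the edge of this pattern. Their mean r with the other 9 genes was 0.46 for Apoe and 0.43 for Mertk, against 0.78 for C1qc, 0.77 for C1qb and C1qa, 0.73 for Trem2, 0.72 for Adgre1, 0.71 for Cd68, 0.63 for Csf1r and 0.59 for Itgam. The 4 pairs that did not pass by Pearson's r all involved one of them: Itgam and Apoe (r = 0.13, adjusted permutation p = 0.547; rho 0.03), Cd68 and Apoe (0.32, adjusted permutation p = 0.129; rho 0.18), Mertk and Apoe (0.31, adjusted permutation p = 0.123; rho 0.45, adjusted permutation p = 0.0194) and Csf1r and Mertk (0.30, adjusted permutation p = 0.154; rho 0.29). Without the 2 tumours farthest from the Itgam median, r for Itgam and Apoe was -0.08. Apoe is made by many cell types besides macrophages, and its r with the fibroblast gene Col1a1 was -0.08 and with the epithelial gene Epcam 0.20, neither of which passed.

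**Figure D3:**
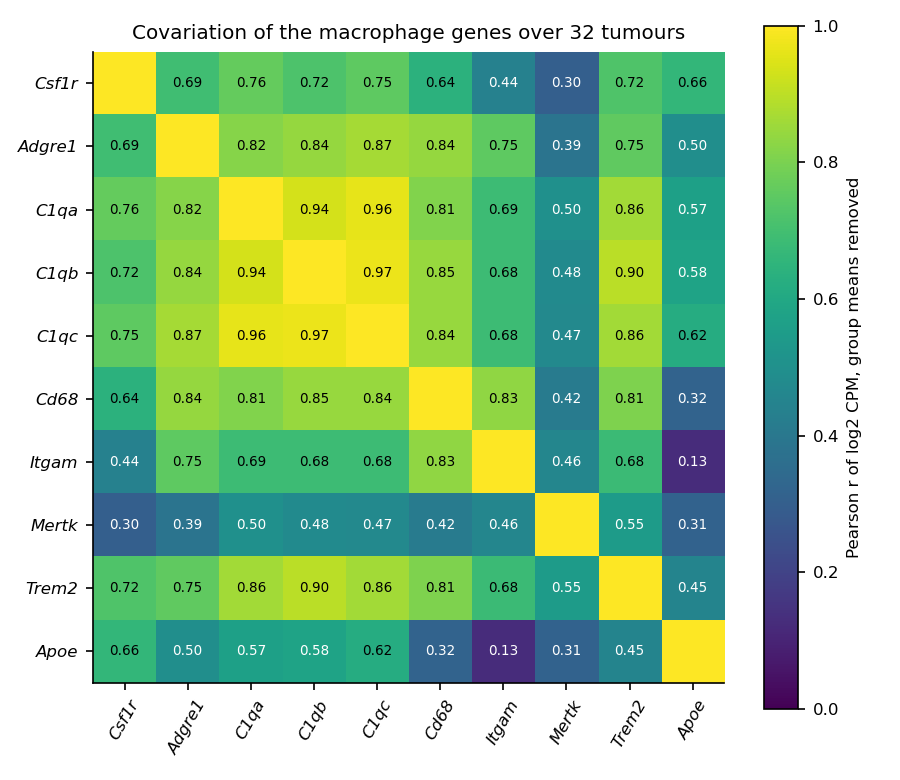
Pearson's r between each pair of the 10 genes over 32 tumours, computed on log2 CPM after each group's mean was removed; the colour scale runs from 0 to 1. The C1q genes, Trem2, Adgre1 and Cd68 form a block between 0.75 and 0.97, and the rows of Mertk and Apoe hold the lowest values, down to 0.13 for Itgam and Apoe.

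Because C1q is assembled from its A, B and C chains in equal numbers, the share of each in their summed level per kilobase was also followed. Over the 32 tumours C1qa made up 32.8% ± 1.74 (SD), C1qb 35.7% ± 1.499 and C1qc 31.5% ± 1.06 of the sum. These shares rest on the principal transcript: with the length of all exons, an alternative added after the data were seen, they were 37.2%, 40.5% and 22.2%. The group means of C1qa ran from 31.3% in carbon-ion controls to 34.1% after photons, those of C1qb from 35.1% to 36.3% and those of C1qc from 30.8% to 32.4%. The summed C1q level thus differed between tumours far more than the proportions of its chains, which stayed within a narrow band. The highest C1qa share, 37.6%, was in photon-irradiated replicate 3, the tumour with the lowest levels.

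**Figure D4:**
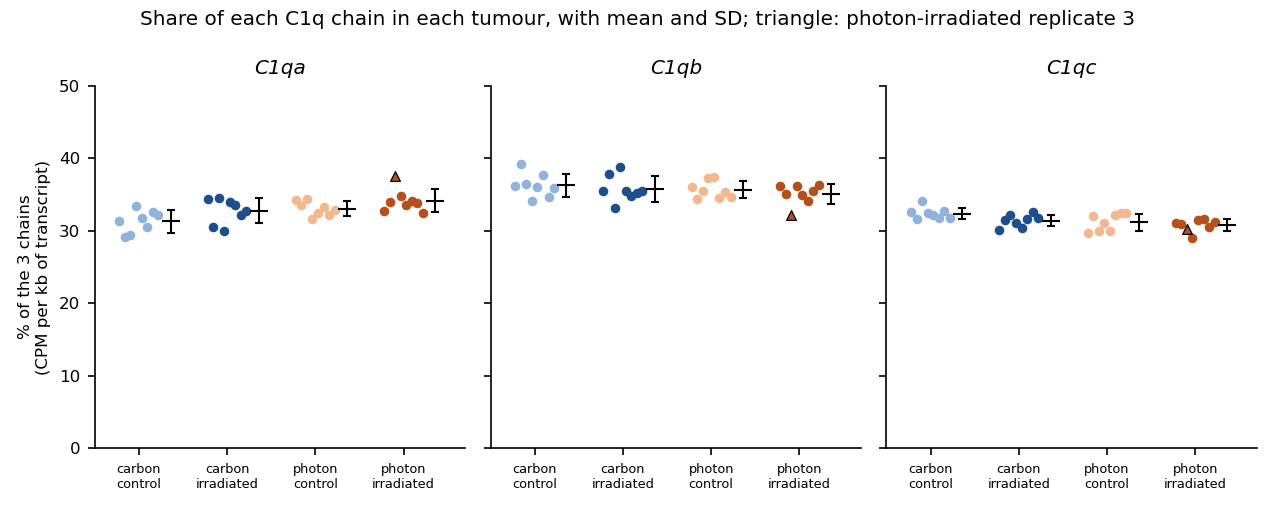
Share of C1qa, C1qb and C1qc in their summed CPM per kilobase of transcript, in percent, for each tumour (points), with group mean and SD (bars); the triangle is photon-irradiated replicate 3. All points lie between 29.03% and 39.2%, and the groups overlap for every chain.

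Ligands, receptors and adaptors of these genes were read beside them, in lists chosen with earlier results of these data known. Of 14 genes of the Csf1 pathway and of macrophage transcription factors, 1 was higher in carbon-irradiated than photon-irradiated tumours (Cebpa, log2 difference 0.41, SE 0.12, adjusted p = 0.0382, edgeR); it was also higher between the controls of the arms (0.53, adjusted p = 0.00501, edgeR). None of the 14 passed after photons or after carbon ions. The ligand Csf1 differed by -0.34 after photons (adjusted p = 0.250, edgeR) and by 0.42 between the irradiated groups (adjusted p = 0.124, edgeR), while Il34, the other ligand, differed by 0.09 and -0.02. Spi1, the PU.1 gene whose core was marked in the promoters above, differed by -0.56 after photons (adjusted p = 0.0853, edgeR) and 0.50 between the irradiated groups (adjusted p = 0.101, edgeR). Over the 32 tumours Csf1r followed Spi1 with r = 0.65 (adjusted permutation p = 0.000693, 13 pairs chosen after values were seen; rho 0.64; 0.61 without the 2 farthest), Csf1 with r = 0.43 (adjusted permutation p = 0.0637; rho 0.46, adjusted permutation p = 0.0328) and Il34 with r = -0.08.

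Many myeloid surface genes were also higher between the irradiated groups. Of 21 tested, 10 were higher after carbon ions and none lower, with a median difference of 0.59 and all 21 positive. The 4 with the smallest p were the lysozyme gene Lyz2 (0.91, SE 0.17, adjusted p = 0.0130, edgeR), the Fc receptor gene Fcgr3 (0.78), the scavenger receptor gene Msr1 (0.93) and the integrin gene Itgax (0.58). Itgb2, the beta chain that pairs with Itgam, also passed (0.70, SE 0.20, adjusted p = 0.0415, edgeR), whereas Itgam itself did not; the genes varied together with r = 0.86 (adjusted permutation p = 6.5e-05; rho 0.87; 0.84 without the 2 farthest). After photons 4 of the 21 fell: Itgax by 0.57, Itga4 by 0.69, Cd300a by 0.58 and the mannose receptor gene Mrc1 by 0.77 on the log2 scale. After carbon ions none passed, the smallest p being that of Msr1 (0.68, adjusted p = 0.345, edgeR).

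Among 21 tested lipid genes around Trem2 and Apoe, 7 were higher in carbon-irradiated than in photon-irradiated tumours and none lower, with a median of 0.41. They included Tyrobp, the Trem2 adaptor (0.80, SE 0.19, adjusted p = 0.0206, edgeR), Npc2, which moves cholesterol out of lysosomes (0.32), the tetraspanin gene Cd9 (0.58) and the galectin gene Lgals3 (0.52). Trem2 followed Tyrobp over the tumours with r = 0.73 (adjusted permutation p = 6.5e-05; rho 0.71; 0.71 without the 2 farthest), and had r = -0.19 with Spp1, the osteopontin gene (adjusted permutation p = 0.429; rho -0.32, adjusted permutation p = 0.155; -0.43 without the 2 farthest), with r from -0.79 among the 8 photon controls to 0.26 among the 8 photon-irradiated tumours. Apoe followed the cholesterol exporter gene Abca1 with r = 0.30 (adjusted permutation p = 0.271). After photons 1 lipid gene passed, the fatty acid transporter gene Cd36, which fell by 1.96 on the log2 scale (SE 0.53, adjusted p = 0.0325, edgeR).

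Of 20 other complement genes 1 was higher between the irradiated groups, a share close to that of all genes, namely Calr (0.39, SE 0.10, adjusted p = 0.0279, edgeR), which encodes the C1q-binding chaperone calreticulin, and after photons the C5a receptor gene C5ar1 fell by 0.64 on the log2 scale. Between the controls of the arms Cfi was lower in the carbon-ion arm (-1.28, SE 0.36, adjusted p = 0.0203, edgeR), while Hc, the complement C5 gene, was higher (1.33). Of 17 tested genes of dying-cell uptake, the pathway of Mertk, 1 passed between the irradiated groups (Dock1, -0.29, SE 0.08, adjusted p = 0.0360, edgeR) and 1 after photons (Itgb3, which fell by 0.41). Both shares were close to those of all genes (5.08% and 3.81%). Mean Dock1 levels were 141 CPM in carbon-ion controls and 142 CPM after carbon ions, against 162 CPM in photon controls and 173 CPM after photons. The Mertk ligand gene Gas6 varied widely, with an SE of 0.44 for its difference of 0.65 between the irradiated groups (adjusted p = 0.357, edgeR). Mertk followed neither Gas6 (r = 0.22) nor its relative Axl (r = -0.01), and neither pair passed.

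Some genes of other cells also differed. Between the irradiated groups 3 of 6 tested neutrophil genes were higher after carbon ions (Retnlg 2.24, S100a9 1.31 and S100a8 1.35 on the log2 scale), and the summed level of the 11 neutrophil markers was 28.5 to 54.7 CPM after carbon ions and 16.3 to 36.2 CPM after photons, with none of the 11 at 0 in every library of either group. Monocyte genes had 2 of 13 higher (Plac8 0.74 and Ccl12 0.86); Plac8 was also higher in the carbon-ion than in the photon controls (0.69, adjusted p = 0.0331, edgeR). None of the T cell (9), dendritic (8), fibroblast (8), endothelial (6), epithelial (8) or skeletal muscle (7) markers passed in that comparison; the fibroblast median was -0.01, the epithelial median 0.25 and the muscle median 3.15. The 7 muscle markers summed to 5.31 to 3077 CPM after carbon ions and 3.85 to 316 CPM after photons. Itgam is expressed by neutrophils too: over the tumours it followed the neutrophil gene Csf3r with r = 0.56 (adjusted permutation p = 0.0101) and had r = 0.08 with S100a8 (adjusted permutation p = 0.750). That pooled value covers r = -0.73 among the 8 carbon-irradiated and 0.77 among the 8 photon-irradiated tumours, and the difference between them was not tested. The part of these cells in the macrophage gene differences was not tested.

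After photons some genes of these lists fell. Of 6 tested neutrophil genes 3 fell (Cxcr2 by 0.93, Csf3r by 0.79 and Retnlg by 1.89 on the log2 scale), 2 of 8 dendritic genes (Zbtb46 and Batf3), 2 of 8 fibroblast genes (Pdgfrb and Fap) and 2 of 6 endothelial genes (Emcn and Tek). Of 9 T cell genes Cd2 and Cd3d fell and Cd8a rose. Some of these levels were very low. Medians in photon controls and after photons were 1.89 and 0.349 CPM for Retnlg and 0.896 and 0.328 CPM for Cd2. For Cd3d they were 0.459 and 0.129 CPM and for Cd8a 0.182 and 0.472 CPM. Of 13 monocyte genes 1 passed, Vcan, which fell by 0.73 (SE 0.18, adjusted p = 0.0242, edgeR). No epithelial marker passed. Between the untreated controls, all 8 fibroblast and all 6 endothelial genes were lower in the carbon-ion than in the photon arm (median log2 differences -0.59 and -0.47). So were 7 of 8 dendritic, 8 of 9 T cell, 8 of 13 monocyte and 3 of 6 neutrophil genes. Csf1r differed by -0.05 between these controls. Summed levels in photon controls and after photons were 24.7 to 66.4 and 16.3 to 36.2 CPM for neutrophil markers (Elane at 0 in every photon control), 12556 to 26794 and 9133 to 16919 CPM for fibroblast markers, and 6.37 to 1286 and 3.85 to 316 CPM for muscle markers. The part of these shifts in the Csf1r difference was not tested.

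Finally, the genes most like the 10 in their variation over tumours were ranked by Pearson's r with the mean standardised level of the 10, group means removed, among 11560 genes at a mean log2 CPM of at least 2. They were Lyz2 (0.93), the lysosomal protease gene Ctss (0.91), C5ar1 (0.90), the Fc receptor chain gene Fcer1g (0.90), the lectin gene Clec4a2 (0.90), Cd48 (0.89), Pld4 (0.89) and Lrrc25 (0.88), over 32 tumours. The median r was 0.59 for the other myeloid surface genes, 0.30 for the 3 neutrophil genes at this level, 0.38 for fibroblast, 0.54 for endothelial and -0.11 for epithelial markers, against 0.0126 over all genes. These values describe likeness over libraries that share their depth and tissue content.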

How the data were processed

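RNA was extracted from tumour tissue and made into stranded mRNA libraries, per the labels' protocols. The values deposited by the authors are estimated counts, 1 per gene and library, under the name of raw counts. Of 853648 values above 0, none was exactly whole, so they may have been rescaled before deposit, and library totals may differ from the number of reads. The submitters' processing notes name mm10, FastQC 0.12.0, Trimmomatic 0.32 and RSEM 1.3.3; annotation, aligner and strand setting are not given in the sources used here. The tests were designed for whole counts, so the estimated counts were rounded, which changed library totals by at most 0.00403%. In R 4.3.3 with edgeR 4.0.16, filterByExpr (minimum count 10) left 20474 genes; TMM scaling and 1 quasi-likelihood fit over all 32 libraries gave 5 comparisons, with Benjamini-Hochberg adjustment over all genes and a threshold of 0.05. CPM are TMM-scaled except those of the overlapping genes, log2 CPM use a prior count of 2, and 95% intervals use 28 residual degrees of freedom. The scripts were tested on simulated data. Transcript lengths and positions came from GENCODE M21 (GRCm38). The lowest estimated count of the 10 genes was 74.2, for Trem2.

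All 10 genes were always named. From each other list, genes past the threshold between the irradiated groups and after photons were named, up to 4 with the smallest adjusted p. Where none passed, at most 1 was named. Between the controls only some that passed were named. Not named there are 1 lipid and 2 epithelial genes that were higher in the carbon-ion arm. Also not named are 2 uptake, 1 monocyte, 1 dendritic, 2 fibroblast and 1 endothelial gene that were lower. Partner genes (Csf1, Il34, Spi1, Itgb2, Gas6, Axl, Spp1, Abca1, Csf3r, S100a8, Col1a1, Epcam, Tyrobp and Hmgxb3) were added after values were seen. The genes and lists were chosen with earlier results of these data known. Replicate numbers follow the order of deposition and pair nothing. Alternatives were DESeq2 1.42.0 and its size factors, upper-quartile scaling, no filter, only the groups compared, the title letter, M-titled libraries alone and leaving out each library; the length of all exons was added after the data were seen. One result among the listed genes is not reported here.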

Additional observations from a re-analysis of the deposited data

How the results depend on the processing

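The direction of all 10 differences between the irradiated groups and the number of calls in the carbon-ion comparison, between controls and for the difference of the effects (0 each) held under every alternative run. Between the irradiated groups 6 genes passed; the count was 2 without a filter on low counts, 0 with only the groups compared and 3 with the title letter as a term, and 1 to 7 when 1 library was left out. After photons 1 passed, and 0 to 2 did when 1 library was left out. Values that changed sign, none of them called, were Adgre1 after carbon ions (-0.1096) and Csf1r between controls (0.0111) among M-titled libraries. Leaving out 1 library gave sign changes for Csf1r after carbon ions (-0.0242 to 0.1167), Apoe after photons (-0.1632 to 0.0006), and between controls Csf1r (-0.0886 to 0.0348), C1qa (-0.056 to 0.0704) and Adgre1 (-0.008 to 0.1044). The cause was not tested.

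Counts over all genes moved more. After photons 781 genes were called, 431 without a filter and 1524 by DESeq2; for the difference of the effects 16, against 4 without a filter, 94 with upper-quartile scaling, 262 by DESeq2 and 1 among M-titled libraries; between controls 1871, against 1081 with the title letter and 973 among M-titled libraries; between irradiated groups 1041, against 319 without a filter, 57 with only the groups compared, 502 with the title letter and 1947 by DESeq2. For the difference of the effects 7 of the 16 called genes were higher, against 22 of 94 with upper-quartile scaling. Without photon-irradiated replicate 3 the calls were 480 after photons, 5 for the difference of the effects and 108 between the irradiated groups. No paired analysis was possible because the labels carry no replicate numbers.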
